A study of Homo sapiens with 6 samples.

Results

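AGAP4, AGAP5, AGAP6, AGAP9, AGAP7P and BMS1P7 are segmental duplicates on chromosome 10. They were 6 of the 39843 genes in a table of raw counts per transcript, and held 15 of its 151453 transcripts with a gene. They were taken by their symbols. The choice was made with the comparison of CYGB-overexpressing and control cells already known, so every value of these 6 genes in that comparison is a description and carries no test. HCT116 cells, a human colon cancer line, had been given either a control lentivirus (MOCK, 3 libraries) or a lentivirus with the CYGB coding region fused to FLAG (CYGB, 3 libraries). Both were then kept under puromycin, so the 2 groups share transduction and drug selection, and each group is 1 stably transduced line. Whether a line came from 1 clone or many is not given in the sources used here, and nothing says that the libraries came from separate transductions, so p-values measure only the spread between these libraries. CYGB encodes cytoglobin, a haem protein that binds oxygen, and its overexpression is the only labelled difference between the groups.

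AGAP proteins are GTPase-activating proteins for ARF, the small GTPases that drive vesicle budding and membrane traffic, and they combine an ArfGAP domain with a GTPase-like domain, a PH domain and ankyrin repeats. The best known members, AGAP1, AGAP2 and AGAP3, lie on other chromosomes, while chromosome 10 carries many near-identical copies, some coding and some annotated as pseudogenes. BMS1 is a GTPase of the small subunit processome, the particle in which the small ribosomal subunit is assembled in the nucleolus, and it too has left many partial copies on chromosome 10.

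Of the 6 genes, AGAP4, AGAP5, AGAP6 and AGAP9 are annotated in GENCODE 29 as protein coding. AGAP7P is annotated as an unprocessed pseudogene, that is, a gene copy that kept its introns, and BMS1P7 as a transcribed unprocessed pseudogene. On GRCh38, AGAP4 (ENSG00000188234) lies at chr10:45825594-45853875 on the minus strand and AGAP7P (ENSG00000264204) at chr10:46109621-46131358 on the plus strand. AGAP9 (ENSG00000204172) lies at chr10:47501854-47523638 and BMS1P7 (ENSG00000270025) at chr10:48050282-48060016, both on the minus strand. AGAP6 (ENSG00000204149) lies at chr10:49982190-50010499 on the plus strand, and AGAP5 (ENSG00000172650) lies farther along the chromosome at chr10:73674285-73698159 on the minus strand. AGAP4 had 6 transcripts in the table, AGAP5 had 3, AGAP6 had 3, and AGAP9, AGAP7P and BMS1P7 had 1 each.

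How far a read can tell these copies apart is visible in their sequences. The first set shows 120 bases of exon 8 of 8 of AGAP7P, its last exon, beside the same stretch of 5 other copies, from GENCODE 29 transcripts on GRCh38. AGAP7P is shown because it was nearly absent in CYGB cells and its relatives were not. The stretch of 120 bases was picked for having the most differences from the nearest copy. It is therefore not a typical stretch, and most of the sequence tells the copies apart less well. Each line reads 5′ to 3′ along the gene's own strand, and capitals mark the bases that differ from AGAP7P.
AGAP7P (chr10:46130263-46130382, plus strand): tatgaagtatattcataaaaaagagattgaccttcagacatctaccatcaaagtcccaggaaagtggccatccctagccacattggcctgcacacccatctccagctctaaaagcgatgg
AGAP10P (chr10:45699136-45699255, plus strand): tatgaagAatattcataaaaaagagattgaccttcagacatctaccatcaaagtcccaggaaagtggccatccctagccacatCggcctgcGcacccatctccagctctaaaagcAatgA
AGAP4 (chr10:45826891-45827010, minus strand): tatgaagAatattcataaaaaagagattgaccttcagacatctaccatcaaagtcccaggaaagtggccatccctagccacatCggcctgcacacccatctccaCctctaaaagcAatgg
AGAP6 (chr10:50009091-50009210, plus strand): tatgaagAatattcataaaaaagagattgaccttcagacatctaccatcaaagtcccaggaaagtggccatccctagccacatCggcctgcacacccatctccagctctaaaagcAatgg
AGAP5 (chr10:73675575-73675694, minus strand): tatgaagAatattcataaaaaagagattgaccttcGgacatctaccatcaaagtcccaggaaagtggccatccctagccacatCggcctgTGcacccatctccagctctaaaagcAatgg
AGAP9 (chr10:47503044-47503163, minus strand): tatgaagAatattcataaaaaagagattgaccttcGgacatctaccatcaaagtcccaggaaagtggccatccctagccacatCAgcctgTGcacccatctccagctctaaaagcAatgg
The copies differed from AGAP7P at 3 to 7 of the 120 bases, and at 3 positions all 5 copies carried the same base and AGAP7P another. Over the whole last exon of AGAP7P (1476 bases), the number of single-base edits that separated it from a copy was 15 for AGAP4, 16 for AGAP10P, 19 for AGAP6, 20 for AGAP5 and 36 for AGAP9.

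The second set shows 120 bases of exon 2 of 7 of BMS1P7 beside BMS1P2 and BMS1P1, with capitals at the bases that differ from BMS1P7. The stretch was picked in the same way as the first.
BMS1P7 (chr10:48058811-48058930, minus strand): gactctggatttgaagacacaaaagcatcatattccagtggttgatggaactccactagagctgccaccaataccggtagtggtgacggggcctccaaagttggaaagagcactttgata
BMS1P2 (chr10:47550728-47550847, minus strand): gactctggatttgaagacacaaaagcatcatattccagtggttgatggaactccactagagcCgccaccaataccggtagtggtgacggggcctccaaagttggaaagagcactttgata
BMS1P1 (chr10:46789497-46789616, plus strand): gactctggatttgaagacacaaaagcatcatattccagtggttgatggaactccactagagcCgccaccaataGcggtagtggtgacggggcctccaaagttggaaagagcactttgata
BMS1P2 differed from BMS1P7 at 1 base here and BMS1P1 at 2. Over the whole BMS1P7 transcript (1052 bases), 4 edits separated it from BMS1P2 and 15 from BMS1P1, whereas 114 separated it from BMS1 itself. The third sequence is the opposite case, 150 bases of AGAP7P at chr10:46131132-46131281 on the plus strand, which occur without a single difference in 6 other genes: AGAP4, AGAP6, AGAP10P, AGAP11, AL136982.1 and AL136982.4. A read of 150 bases that falls wholly in it carries nothing that names its gene.
AGAP7P, exon 8: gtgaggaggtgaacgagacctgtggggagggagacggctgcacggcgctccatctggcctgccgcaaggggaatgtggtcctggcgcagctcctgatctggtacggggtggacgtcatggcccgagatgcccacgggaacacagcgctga

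The reads were paired and 150 bases long, so the share of 150-base windows found unchanged in another gene was counted for each transcript. Each window was taken alone, without the mate of a read, so the share is of windows and not of read pairs. It is given here per transcript. It was 48.1% for AGAP7P, with 13 other genes involved, and 66.8% for BMS1P7, with 3 other genes involved. For the leading transcripts of the other genes it was 93.5% for AGAP5 (ENST00000374094), 43.5% for AGAP4 (ENST00000618171), 39.5% for AGAP9 (ENST00000452145) and 16.3% for AGAP6 (ENST00000412531). The share for AGAP5 came almost wholly from AC022400.3, an overlapping transcript on the same strand that repeats 2249 bases of AGAP5. The windows of AGAP7P that were not unique lay most often in AGAP10P (35.0% of its windows) and AGAP4 (23.7%). Those of BMS1P7 lay in BMS1P2 and AL591684.2 (55.4% each) and BMS1P1 (19.9%). Windows without an exact match were near ones: the nearest other copy was at most 4 edits away in all windows of AGAP7P examined and at most 1 edit away in those of BMS1P7. How reads that fit several copies were assigned is not given in the sources used here, and the library kit is not one that marks strand, so the counts of single copies are uncertain by an amount that the table does not show. No annotated gene overlaps AGAP7P, BMS1P7 or AGAP4. AGAP9 overlaps AL591684.2, a readthrough transcript on its own strand, and AGAP5, AGAP6 and AGAP9 each overlap 1 annotated antisense gene.

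**Figure D1:**
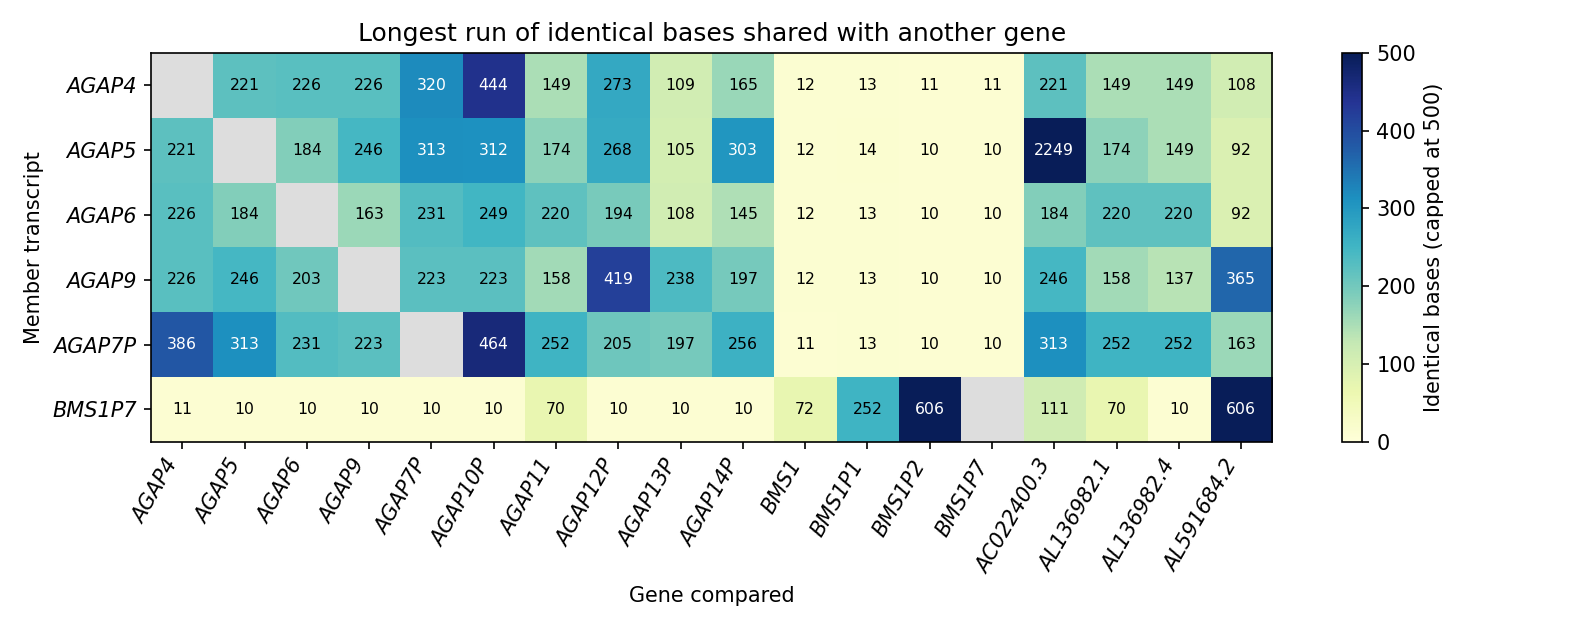
The longest run of identical bases between 1 transcript of each of the 6 genes (rows) and any annotated transcript of each gene compared (columns), in bases, with the colour capped at 500. AGAP7P shares 464 bases in a row with AGAP10P and 386 with AGAP4, BMS1P7 shares 606 with BMS1P2, and no AGAP row shares more than 14 bases in a row with BMS1, BMS1P1, BMS1P2 or BMS1P7.

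Library totals were 58138393 to 65252059 counts in MOCK and 61601071 to 66035266 counts in CYGB, of which 18.6 to 19.5% lay in assembled transcripts without a gene. Values below are CPM, the usual scaling of a count to the size of its library, here with TMM factors and over the counts with a gene. CYGB itself, which checks the labels, stood at 10, 28 and 34 counts in MOCK cells and at 34935, 27681 and 32333 after overexpression. Epithelial markers summed to 4127 to 4601 CPM in MOCK and 4199 to 4490 CPM in CYGB, with 6 of the 7 in the table at 1 CPM or more in all 6 libraries, among them EPCAM, KRT8 and CDX2. Endothelial markers summed to at most 2.32 CPM. Fibroblast markers summed to 45.6 to 51.3 CPM in MOCK and 47.9 to 55.2 CPM in CYGB, with 1 of 6 at 1 CPM or more throughout, COL1A1, and leukocyte markers to 19.7 to 21.95 and 10.8 to 26.1 CPM, with 1 of 5, CD68. In bulk RNA of this kind, fewer cells of a type and less RNA per cell cannot be told apart.

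AGAP7P and BMS1P7 were the 2 of 6 genes whose groups did not overlap, beside 11% of the 19974 genes tested (5.32% with CYGB lower). Nothing is read from this count, since the comparison chose the genes. The MOCK libraries held 232, 193 and 270 counts of AGAP7P, and CYGB replicates 1 to 3 held 0, 0 and 2. All 3 control libraries were high, and both of the counts in CYGB cells came from replicate 3. AGAP7P thus averaged 4.60 ± 0.840 CPM in control cells and 0.0127 ± 0.0220 CPM in CYGB cells (SD, n = 3 each). Set against the library sizes, 695 counts in MOCK and 2 in CYGB gave a ratio of 353. This ratio rests on 2 counts and is a description.

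Counts of BMS1P7 were 42, 61 and 52 in MOCK, and each CYGB library had 0. The MOCK libraries lay close together at 1.02 ± 0.133 CPM (SD, n = 3), and no CYGB library held a single count. Against a floor of 3 counts over the CYGB group, BMS1P7 was at least 52.5-fold lower in CYGB. By the threshold of the study's methods (unadjusted p of at most 0.01 and a ratio of at least 2 or at most 0.5), 0.28% of the 19974 genes tested were called lower in CYGB, 0.0551% had an adjusted p under 0.05 in either direction, and AGAP7P and BMS1P7 are among the former by the way the set was chosen.

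AGAP9 had the widest spread within groups. Its single transcript, ENST00000452145, had 828, 142 and 268 counts in MOCK and 908, 204 and 333 in CYGB. Replicate 1 of each group was high and replicate 2 low, and the groups overlapped from end to end, at 8.47 ± 7.94 CPM in MOCK and 9.44 ± 7.48 CPM in CYGB (SD, n = 3 each). The log2 fold change, CYGB against MOCK, was 0.16 with a standard error of 0.84. It was -0.71 without CYGB replicate 1 and 1.26 without MOCK replicate 1, and it also turned negative without MOCK replicate 2 (-0.27) or MOCK replicate 3 (-0.10), so single libraries set its sign.

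AGAP5, the steadiest of the coding copies, had 345, 470 and 496 counts in MOCK and 542, 365 and 470 in CYGB. The 2 groups lay over each other at 8.61 ± 1.19 and 8.95 ± 1.77 CPM (SD, n = 3 each), with a log2 fold change of 0.06 and a standard error of 0.21. Nearly all of it was ENST00000374094, with 262, 454 and 462 counts in MOCK and 528, 341 and 445 in CYGB. A second coding transcript, ENST00000581191, reached 76 counts in MOCK replicate 1 and 5 to 19 in the other libraries.

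AGAP4 had 92, 117 and 25 counts in MOCK and 59, 44 and 48 in CYGB. The CYGB libraries sat inside the MOCK range, with MOCK replicate 3 below and MOCK replicates 1 and 2 above all of them (1.55 ± 0.931 against 0.983 ± 0.162 CPM; SD, n = 3 each). The log2 fold change was -0.66 with a standard error of 0.55. The counts were spread over all 6 transcripts, none of which reached a mean of 1 CPM in either group. One of them, the short coding transcript ENST00000492347, had 7, 29 and 12 counts in MOCK and 1 in each CYGB library, below every MOCK library but too few to pass the expression filter.

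AGAP6 had 138, 45 and 82 counts in MOCK and 27, 72 and 90 in CYGB. The highest and the lowest library differed in group, but the other 4 interleaved (1.79 ± 1.05 against 1.22 ± 0.613 CPM; SD, n = 3 each), and the log2 fold change was -0.55 with a standard error of 0.59, or 0.0003 without MOCK replicate 1. Its 2 most counted transcripts varied in different libraries. ENST00000412531 had 75, 42 and 81 counts in MOCK and 26, 47 and 48 in CYGB, while ENST00000618025 had 63, 3 and 0 in MOCK and 0, 25 and 42 in CYGB. ENST00000618025, like ENST00000618171 and ENST00000492347 of AGAP4 and ENST00000581191 of AGAP5, averaged under 1 CPM in both groups and was named after its values were seen, as were those 3. All 6 genes passed the expression filter, as did 9 of their 15 transcripts.

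**Figure D2:**
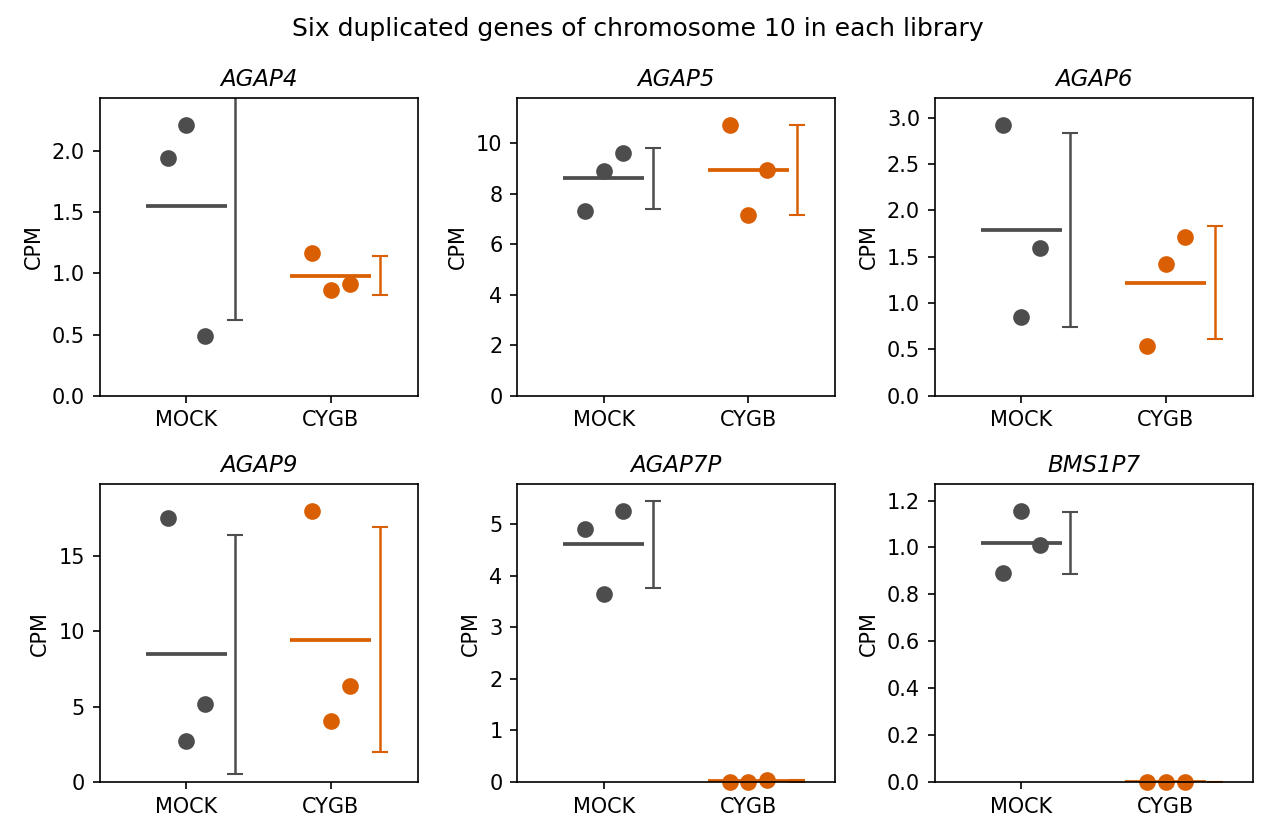
CPM of each gene in each of the 6 libraries (points, replicates 1 to 3 from left to right), with the group mean (line) and SD (bar beside it, cut at 0). The 3 MOCK points of AGAP7P and BMS1P7 stand above 3 CYGB points at or near 0, whereas the groups overlap for AGAP4, AGAP5, AGAP6 and AGAP9.

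Levels of different genes were compared per length, as CPM per kilobase of transcript. In MOCK the order from the top was AGAP5 (3.86 ± 0.669), AGAP9 (3.55 ± 3.33), AGAP7P (2.23 ± 0.407), AGAP4 (1.92 ± 1.03), BMS1P7 (0.968 ± 0.126) and AGAP6 (0.731 ± 0.408; SD, n = 3 each). No 2 neighbours in this order differed beyond their SD. Per kilobase, AGAP7P thus lay between the coding copies AGAP9 and AGAP4 in control cells. The value of AGAP4 leans on short transcripts, since a count on a short transcript weighs more in this measure. Its transcripts of 340, 400 and 413 bases held 25, 7 and 48 of its 234 counts in MOCK. The rank of AGAP4 in either group is therefore uncertain. In CYGB cells AGAP5 and AGAP9 still led, at 3.96 ± 0.765 and 3.96 ± 3.13 CPM per kilobase, AGAP4 followed at 0.915 ± 0.109 and AGAP6 at 0.493 ± 0.239.

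The spread within groups was set beside that of all genes, as the pooled SD of log2(CPM + 0.5). The median over the 19974 genes tested was 0.231. AGAP9 had 1.16, more than 94.4% of the 3445 genes within a factor of 2 of its level, and AGAP6 (0.628) and AGAP4 (0.579) exceeded 91.0 and 90.1% of theirs. AGAP5 was ordinary at 0.238. AGAP7P (0.182) and BMS1P7 (0.0891) were below most genes of like level, but CYGB libraries at or near 0 add almost no spread on this scale. In MOCK alone their SD was 0.249 and 0.126, beside 0.194 for AGAP5, 0.670 for AGAP6, 0.804 for AGAP4 and 1.27 for AGAP9.

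The total over near-identical copies does not depend on which copy within that set a read was given to. The 6 genes are not closed in this sense, since copies outside them, such as AGAP10P and BMS1P2, share windows with them. The 6 genes together had 1677, 1028 and 1193 counts in MOCK and 1536, 685 and 943 in CYGB. The groups overlapped at 26.0 ± 8.40 and 20.6 ± 8.77 CPM (SD, n = 3 each), with a log2 fold change of -0.34 and a standard error of 0.37. Replicate 1 of each group stood highest, as it did for AGAP9. Without AGAP7P and BMS1P7, the other 4 genes held 20.4 ± 8.12 and 20.6 ± 8.78 CPM.

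Over all 9 AGAP genes of chromosome 10 in the table, which adds AGAP10P, AGAP11, AGAP12P and AGAP14P to the 5 AGAP genes above, MOCK cells held 30.5 ± 8.62 CPM and CYGB cells 25.8 ± 8.63 CPM (SD, n = 3 each; log2 fold change -0.24, standard error 0.30, or 0.01 without MOCK replicate 1). With AGAP7P taken out it was 25.9 ± 8.27 and 25.8 ± 8.64 CPM, and the groups overlapped. AGAP7P made up 12.2, 15.0 and 19.5% of the counts of these 9 genes in MOCK, but 0, 0 and 0.16% in CYGB. The SD of this total was larger than the 4.60 CPM of AGAP7P, so a change of that size in the total could not have been told from the spread between libraries.

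For BMS1P7 the matching total was tighter. BMS1P7 with the 3 genes that share windows with it (BMS1P1, BMS1P2 and AL591684.2) had 466, 552 and 563 counts in MOCK and 504, 559 and 505 in CYGB, or 10.4 ± 0.536 and 10.2 ± 0.719 CPM (SD, n = 3 each). Without BMS1P7 the 3 genes held 9.40 ± 0.484 CPM in MOCK and 10.2 ± 0.719 CPM in CYGB, with overlapping groups. BMS1P2, with the fewest edits to BMS1P7 of the copies compared, had 120, 83 and 75 counts in MOCK and 134, 136 and 124 in CYGB. Its CPM in MOCK replicate 1 lay inside the CYGB range and in the other 2 MOCK libraries below it (log2 fold change 0.47, standard error 0.26; edgeR adjusted p = 0.962 over all genes). The mean of BMS1P7 was 1.02 CPM lower in CYGB, and that of BMS1P2 was 0.707 CPM higher. The other genes that share windows with BMS1P7 did not all move the same way. The difference in mean CPM, CYGB minus MOCK, was 0.429 for BMS1P1, with overlapping groups. For AL591684.2 it was -0.337, with all CYGB libraries below all MOCK libraries. Whether reads were given to another copy was not tested, since the table holds no reads.

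**Figure D3:**
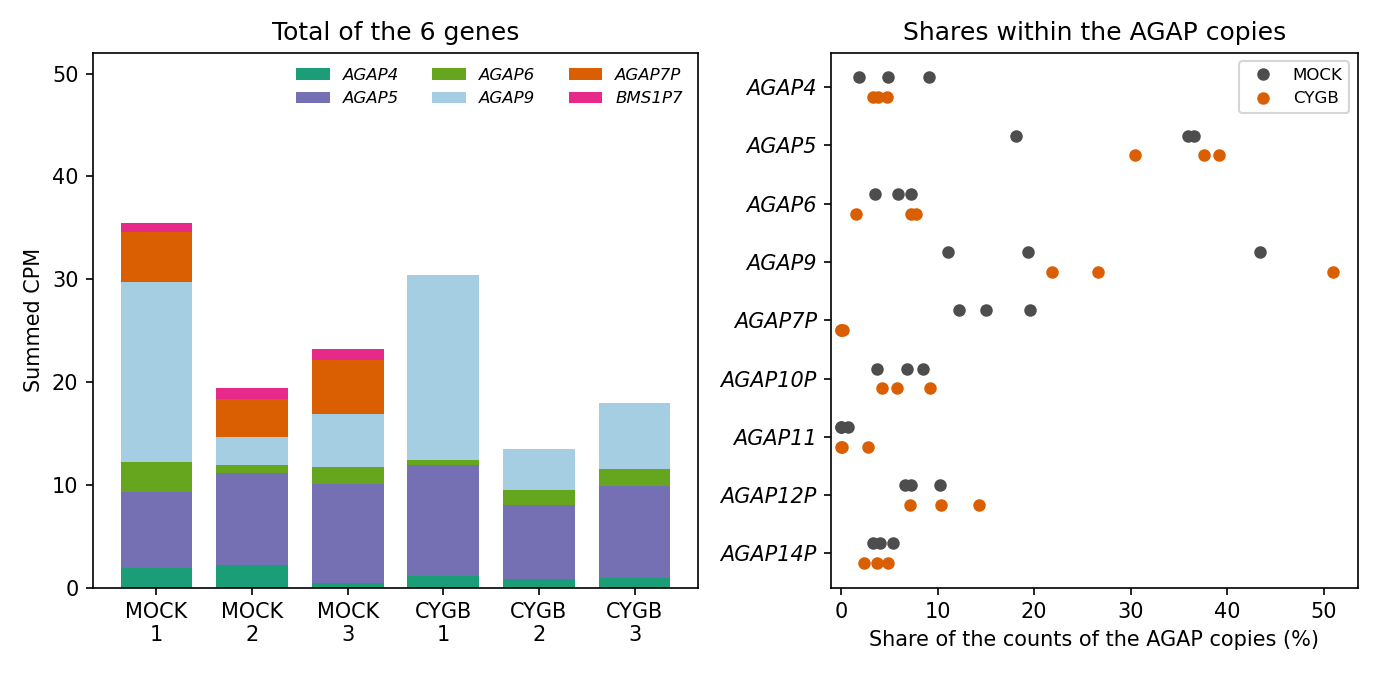
Left, the summed CPM of the 6 genes in each library, stacked by gene; right, the share of each AGAP gene in the counts of the 9 AGAP copies of chromosome 10, in percent, 1 point per library. The AGAP7P and BMS1P7 blocks are visible in all 3 MOCK bars and absent from, or too thin to see in, the CYGB bars, and AGAP9 is the largest source of the differences between bars of a group.

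The other AGAP and BMS1 genes were not chosen by this comparison and were tested across all genes. Of 31 such genes listed, 23 were in the table and 11 passed the expression filter, and edgeR's quasi-likelihood test called 0 of them, with 0 at an unadjusted p under 0.05 and 0 called by DESeq2. Of all genes tested, 0.556% were past the threshold and 4.55% had an unadjusted p under 0.05. The median log2 fold change of the 11 genes was 0.08, against -0.0069 over all genes. AGAP10P, the copy that shares most windows with AGAP7P, had 71, 109 and 95 counts in MOCK and 75, 54 and 115 in CYGB (log2 fold change -0.19, standard error 0.31). The 2 groups overlapped.

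AGAP12P and AGAP14P, 2 further pseudogenes that lie between AGAP7P and MAPK8, differed by log2 fold changes of 0.09 (standard error 0.23) and -0.45 (0.27). AGAP1, AGAP2 and AGAP3, the genes on other chromosomes that regulate endosomal and receptor traffic, differed by 0.21, -0.00 and 0.00 with standard errors of 0.31, 0.43 and 0.11. BMS1, the functional gene, had 4373, 2433 and 2148 counts in MOCK and 7904, 2523 and 6822 in CYGB. The CYGB libraries 1 and 3 were above the control range and CYGB replicate 2 inside it (log2 fold change 0.90, standard error 0.50, adjusted p = 0.962 in edgeR).

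BMS1P4, the pseudogene next to AGAP5, did not pass the test either. It had 123, 112 and 81 counts in MOCK and 56, 75 and 22 in CYGB, so that all CYGB libraries lay below all MOCK libraries (log2 fold change -1.07, standard error 0.47, adjusted p = 0.962 in edgeR). Of its transcripts, ENST00000580790 had 72, 45 and 43 counts in MOCK and 0 in each CYGB library, at least 54.1-fold lower against the floor of 3 counts over the group. It was the 1 of 7 tested transcripts of BMS1 and its other copies to pass the threshold of the methods (adjusted p = 0.226 in edgeR's fit of 66609 transcripts, of which 1.02% passed). BMS1P1 differed by a log2 fold change of 0.08 (standard error 0.17).

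The 5 unnamed genes that share windows with the set were also low and uneven. AL591684.2, which joins BMS1P2 and AGAP9, had 17, 29 and 20 counts in MOCK and 0, 0 and 15 in CYGB, all of the latter below all of the former (log2 fold change -2.14, standard error 1.27, adjusted p = 0.962 in edgeR). AL136982.1 had 24, 193 and 48 counts in MOCK and 9, 32 and 1 in CYGB, with overlapping groups. AL136982.4 had 51, 0 and 50 in MOCK and 62, 104 and 68 in CYGB, all of the latter above all of the former (log2 fold change 1.16, standard error 1.08). AC022400.3 and AC022400.5, beside AGAP5, overlapped between the groups. Of these 5 genes, 0 passed the threshold in edgeR, 0 had an unadjusted p under 0.05, and 0 passed in DESeq2.

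The neighbourhood of AGAP7P and BMS1P7 was gone through gene by gene. From AGAP10P to AGAP6, the stretch that holds 5 of the 6 genes, 37 genes were tested, and of the 32 that are not in the set 0 passed the threshold or an adjusted p under 0.05 in edgeR, 2 had an unadjusted p under 0.05, 1 in each direction, and 0 passed in DESeq2. Their median log2 fold change was 0.0282, and 3 of the 32 had groups that did not overlap, 1 of them lower in CYGB. This stretch was chosen after the values were seen.

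The tested genes on either side of AGAP7P are NCOA4, the ferritin receptor of autophagy, 78.9 kb before it, and AGAP14P, 206 kb after it. NCOA4 had 8303, 9410 and 7521 counts in MOCK and 10178, 9176 and 9521 in CYGB (log2 fold change 0.17, standard error 0.10), with each CYGB library slightly above each MOCK library after scaling. AGAP12P lies 18.6 kb before BMS1P7, and MAPK8, the kinase JNK1, 247 kb after it. MAPK8 had 1773, 1538 and 2572 counts in MOCK and 1545, 2081 and 2022 in CYGB (log2 fold change -0.08, standard error 0.23). None of these 4 neighbours passed the threshold in edgeR or DESeq2.

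**Figure D4:**
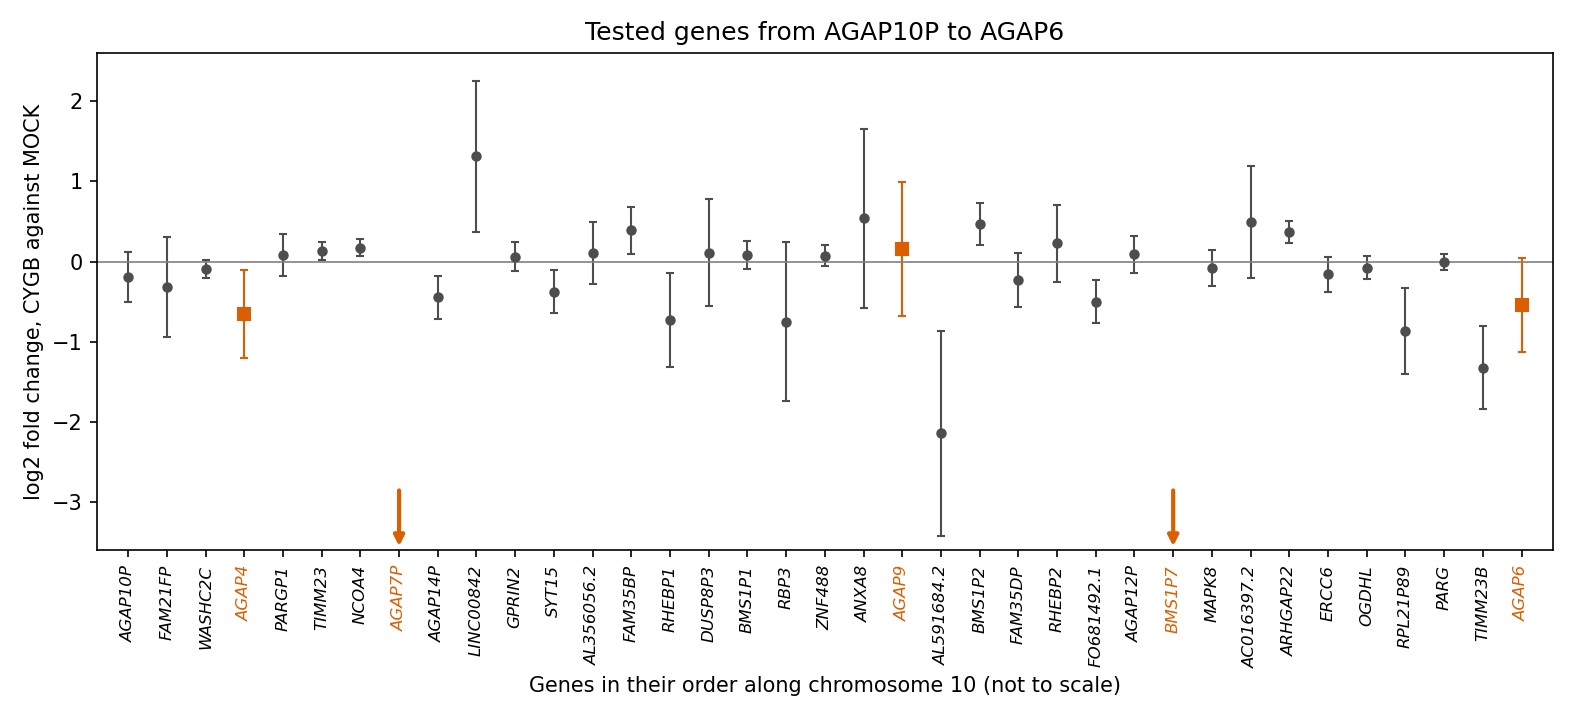
The log2 fold change, CYGB against MOCK, of the 37 tested genes from AGAP10P to AGAP6 in their order along chromosome 10 (not to scale), with standard errors as bars. Orange squares and labels mark the genes of the set, and arrows mark AGAP7P and BMS1P7, whose CYGB counts of 2 and 0 give no fold change to plot; the genes plotted next to AGAP7P are NCOA4 (0.17) and AGAP14P (-0.45), and those next to BMS1P7 are AGAP12P (0.09) and MAPK8 (-0.08).

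Other genes of these chromosome bands were listed too. Of 21 tested genes of other duplicated families of 10q11 and 10q22-q23, such as PARG, TIMM23 and the FAM35 and NUTM2 copies, edgeR called 0, with 1 at an unadjusted p under 0.05 and 0 called by DESeq2. Of 19 tested single-copy neighbours, such as RET and ERCC6, both tools called 0, with 1 at an unadjusted p under 0.05. Of 45 tested transcripts of the duplicated families, 1 was called in the transcript fit, beside 1.02% of all transcripts. It was ENST00000381689 of NUTM2A, with 0 counts in each MOCK library and 55, 138 and 209 in CYGB (adjusted p = 0.318 in edgeR).

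Genes that work with AGAP and BMS1 proteins were listed as well. Of 20 other ArfGAP genes and 5 ARF GTPases, all tested, both tools called 0, with 0 at an unadjusted p under 0.05, and their median log2 fold changes were 0.0022 and 0.06. Of 30 partners of BMS1 in the small subunit processome, both tools called 0 at the ratio threshold and 2 had an unadjusted p under 0.05 in edgeR. One was RCL1, the direct partner of BMS1, with 681, 901 and 873 counts in MOCK and 1171, 1228 and 1487 in CYGB. All CYGB libraries were above all MOCK libraries (log2 fold change 0.64, standard error 0.14), with an adjusted p of 0.962 in edgeR and 0.0133 in DESeq2. The other was WDR75 (-0.61, standard error 0.23, adjusted p = 0.962 in edgeR). Of 135 tested transcripts of these partners, 3 were called higher and 0 lower, beside 1.02% of all transcripts called in either direction. ENST00000381732 of RCL1 had 10, 11 and 10 counts in MOCK and 29, 21 and 45 in CYGB. ENST00000569628 of TBL3 had 0 in each MOCK library and 321, 1628 and 86 in CYGB, and ENST00000508491 of UTP15 had 0 in each MOCK library and 92, 93 and 188 in CYGB. Their adjusted p values were 0.888, 0.766 and 0.209 in edgeR, and the CYGB counts of the TBL3 transcript were very uneven. These genes and transcripts were named after their values were seen.

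How often a gene was present in one group and absent from the other was counted over the whole table. With at least 100 counts over the MOCK libraries and at most 3 over the CYGB libraries, there were 15 of 15914 genes (0.0943%), and 10 of 15893 (0.0629%) the other way round. In nearly all of them at least 1 library of the group with counts had fewer than 10. Asking also for at least 10 counts in every library of the group that had them left 2 of 15755 genes for MOCK, AGAP7P and BMS1P7, and 1 of 15738 for CYGB, AC146949.1. Per transcript the first limits alone were met by 770 of 44112 (1.75%) for MOCK and 865 of 44016 (1.97%) for CYGB. The stricter pattern was met by 76 of 37935 transcripts (0.2%) for MOCK and 101 of 37915 (0.266%) for CYGB. Among them were the 2 pseudogenes, each of which has a single transcript. These limits were chosen after the values were seen, and the counts are descriptions.

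Over the 6 libraries together AGAP9 had the highest mean CPM of the 6 genes, although AGAP5 was above it in MOCK (8.61 against 8.47 CPM). The genes whose log2 CPM followed it most closely over the 6 libraries were ranked among 14760 genes. The 5 highest Pearson correlations were those of ETV7 (0.990), KIAA1324L (0.989), SRXN1 (0.987), CCDC28A (0.986) and DNPH1 (0.985), and the 5 lowest those of CIRBP (-0.996), CDKN2AIP (-0.987), C1QTNF6 (-0.979), ZNF608 (-0.974) and ACSM4 (-0.974). With 6 points that share libraries and depth, and so many genes ranked, values of this size are a description. The range behind them differed: AGAP9 ran from 2.69 to 18.0 CPM, whereas SRXN1, which repairs oxidized peroxiredoxin, ran from 156 to 185 CPM. KIAA1324L came nearest in range, with 1183, 497 and 763 counts in MOCK and 1212, 635 and 752 in CYGB.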

How the data were processed

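RNA-seq libraries of HCT116 cells, 3 MOCK and 3 CYGB, grouped by their GEO titles, were analysed. The values deposited by the authors are unnormalized read counts for each transcript, in 1 table, from 150-base paired-end reads of libraries made with a kit that does not mark strand. The labels' processing notes name HISAT2, HISAT, DESeq2 and hg19 without roles; of 151393 transcripts also in GENCODE 29, 99.5% have its position, so coordinates are those of GRCh38. The counter and its treatment of reads that fit several copies are not given in the sources used here.

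The 21225 transcripts without a gene entered neither library sizes nor tests. Counts were summed per symbol, filtered with filterByExpr (minimum count 10), scaled with TMM factors and fitted by glmQLFit, then tested by glmQLFTest (edgeR 4.0.16, limma 3.58.1, R 4.3.3), CYGB against MOCK, without a replicate block, over 19974 genes and 66609 transcripts, with Benjamini-Hochberg adjustment over all features. No pair of libraries agreed within sampling noise, so none was a copy of another. The lowest chi-square per gene was 72.8, between MOCK replicate 2 and CYGB replicate 2. Each library was used as 1 replicate, and whether the libraries are independent was not tested. The steps were tested on simulated counts. These held no shared sequence, so they say nothing about reads that fit several copies. Alternatives were DESeq2 1.42.0, its size factors, no filter, a mean of at least 50 counts, a block, each library left out, and transcripts without a gene included. Shared sequence was counted in 150-base windows of GENCODE 29 transcripts.

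The members and gene lists were chosen with earlier results of these data known. The genes named are the members, their transcripts that averaged 1 CPM or more in either group, the other AGAP and BMS1 genes at that level, list genes that passed a call, and the 5 genes most and least correlated with the member of highest mean CPM; other names are marked as chosen after their values were seen. Protein sequences were not used here.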

Additional observations from a re-analysis of the deposited data

How the results depend on the processing

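The coding copies and the totals moved by less than the spread between replicates under all settings run, with these ranges of log2 fold change: -1.08 to -0.30 for AGAP4, -0.10 to 0.19 for AGAP5, -0.88 to 0.0003 for AGAP6, -0.71 to 1.26 for AGAP9, -0.73 to -0.05 for the 6 genes together and -0.53 to 0.01 for the 9 AGAP copies. A total over the AGAP members and every gene that shares windows with them was added after the data were seen. Its log2 ratio of mean CPM, CYGB to MOCK, was -0.21, which is not a fitted value. AGAP7P and BMS1P7 were lower in CYGB under every setting that gave them a value, and BMS1P7 has none with a mean of at least 50 counts. With 2 and 0 counts in CYGB against 695 and 155 in MOCK, no setting could have turned this sign, so nothing is read from it. The number of other AGAP and BMS1 genes called stayed at 0 in every setting. Counts over the whole table depended on the tool, the filter and the features tested. Genes past the threshold went from 111 to 260 with DESeq2 and 62 with a mean of at least 50 counts, and transcripts from 681 to 1506 and 319. With the transcripts without a gene tested beside the genes, 266 features passed, a count that takes in these transcripts. Genes with an adjusted p under 0.05 in edgeR went from 11 to 105 with DESeq2, and transcripts from 10 to 748. With the transcripts without a gene included, edgeR gave 6 features of the gene fit and 5 of the transcript fit an adjusted p under 0.05. Without a filter, 5 transcripts had one. The cause was not tested. Leaving out 1 library gave 125 to 176 genes past the threshold (176 without MOCK replicate 3), 6 to 14 with an adjusted p under 0.05 (6 without MOCK replicate 1, 7 without CYGB replicate 3), 961 to 1209 transcripts past the threshold (1036 without MOCK replicate 2, 1209 without MOCK replicate 3, 1031 without CYGB replicate 3) and 0 to 7 with an adjusted p under 0.05 (4 without MOCK replicate 1 or 3, and 1, 3 and 0 without CYGB replicates 1, 2 and 3; for the 0, edgeR had 3100 transcripts with an unadjusted p under 0.05).

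The replicate numbers of the labels were not taken as pairs. Same-numbered libraries correlated in their deviations by 0.0299, 0.0055 and 0.0314, and differently numbered ones by -0.0349 to 0.0058. These values do not exclude pairing. With the replicate block, edgeR put 78 genes and 291 transcripts past the threshold and gave 0 genes and 0 transcripts an adjusted p under 0.05 (765 and 1814 with an unadjusted p under 0.05), and the log2 fold change was -0.37 for the 6 genes together and -0.26 for the 9 AGAP copies.

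Depth limits the low copies most: BMS1P7 rests on 155 counts over the 3 MOCK libraries, and AGAP4 on 234 in MOCK and 151 in CYGB.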
